A study of Mus musculus with 4 samples.

Results

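The enzymes described here write, copy and remove methyl groups on cytosine in DNA, or supply the cofactor that removal needs. They were chosen by name as Tet1, Tet2, Tet3, Dnmt1, Dnmt3a, Dnmt3b, Uhrf1, Tdg, Idh1 and Idh2. Of these 10 genes, 9 had a probe set of their own on the array, out of 19938 genes that did. Tdg, the glycosylase that cuts oxidised cytosine out of DNA, was covered by 4 probe sets that the array annotation assigns jointly to it and to the pseudogene Tdg-ps2, so it has no value here.

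The samples were spleen CD4+ cells of C57BL/6 mice, each hybridised to 1 Affymetrix array. Lymphoma CD4+ cells (2 arrays) came from mice carrying, on both alleles of Tet2, a gene trap (an inserted cassette that interrupts the transcript), and wild type CD4+ splenocytes (2 arrays) came from control mice without it. Cells of both groups were collected with an antibody to CD4 on magnetic columns. The question is how CD4+ lymphoma of these mice differs in expression from normal CD4+ cells. Age, sex, the number of animals, the position of the trap and the purity of the cells are not stated in the labels. Lymphoma arrays differ from wild type arrays in genotype and in malignancy at once, so these effects cannot be told apart, and the p-values measure the spread between these samples, which may be technical.

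The median intensity of the 35556 probe sets lay between 129.8 and 138.3 on the lymphoma arrays and between 140.9 and 141.8 in wild type. Of 7 T cell markers measured, Cd3d, Cd3e, Cd3g and Cd4 were higher on both lymphoma arrays than on both wild type arrays without passing the test, while Thy1 fell (log2 difference -1.56, adjusted p = 0.023 in limma). Cd5, with 2443 and 1557 in lymphoma and 3929 and 3479 in wild type, was lower on both lymphoma arrays without passing (-0.92, adjusted p = 0.11). The summed intensity of the T cell markers was 26920 and 27540 on the lymphoma arrays and 25880 and 24800 in wild type. That of 7 B cell markers was 2779 and 2576 on the lymphoma arrays and 17150 and 11580 in wild type. Of the 7, 6 fell, beside 2.46% of all genes called lower. Cd22, with 652 and 1590 in lymphoma and 2561 and 1968 in wild type, did not pass. The sum of 8 macrophage and monocyte markers was 2486 and 3873 in lymphoma and 9335 and 9793 in wild type, with 6 falling. The sum of 7 dendritic cell markers was 731.2 and 756 in lymphoma and 5008 and 4184 in wild type, with 6 falling. The same 2.46% of all genes stands beside these counts. Neither of 2 CD8 T cell markers passed (summed 384.9 and 424 in lymphoma, 1241 and 692.3 in wild type), nor did 2 natural killer cell markers (67.82 and 215.8 in lymphoma, 192 and 155.6 in wild type) or 2 erythroid markers (270.9 and 747.5 in lymphoma, 301 and 457.4 in wild type). None of these markers was at 0 on any array. In bulk samples, fewer cells of a type and less RNA per cell cannot be told apart. The part of these other cells in the results below was not tested. Each change was also computed relative to the mean of Cd3d, Cd3e and Cd3g, the invariant chains of the T cell receptor complex. That scaling does not test for other cells, and it moved the median gene to -0.52. Every gene then shares the error of the Cd3 mean, so calls on that scale are not independent of each other. It depends on the markers chosen, since Thy1, Cd5 and Cd28 (-0.04) had negative differences and the T cell list had a mean of -0.095.

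DNA methylation in mammals is set by opposing enzymes. DNMT3A and DNMT3B place methyl groups on unmethylated DNA, and DNMT1 copies the pattern to the new strand at replication, guided by UHRF1, which binds hemimethylated sites. TET1, TET2 and TET3 oxidise 5-methylcytosine to 5-hydroxymethylcytosine and beyond, using iron and 2-oxoglutarate, and TDG removes the most oxidised forms so that repair can restore plain cytosine. IDH1 in the cytosol and IDH2 in mitochondria make 2-oxoglutarate, and mutant forms of either make a related molecule that inhibits TET enzymes. TET2, DNMT3A and IDH2 are recurrently mutated in human T cell lymphomas of follicular helper type.

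Across the 9 measured enzymes 1 passed the test and 8 did not. Uhrf1 rose in lymphoma, and none of the 9 fell at an adjusted p under 0.05 (limma, Benjamini-Hochberg over all 19938 genes, 2 arrays a group). Without adjustment 4 had a p under 0.05 (Uhrf1 and, towards lower values, the TET genes), as did 15.6% of all genes. The same threshold of adjusted p called 4.27% of all genes, 1.82% as higher and 2.46% as lower. The median log2 difference of the 9 was -0.29, beside -0.039 over all genes. The lymphoma and wild type values did not overlap for 5 of the 9, with 4 lower and 1 higher in lymphoma, while 44.1% of all genes had ranges that did not overlap (23.5% lower and 20.6% higher).

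**Figure D1:**
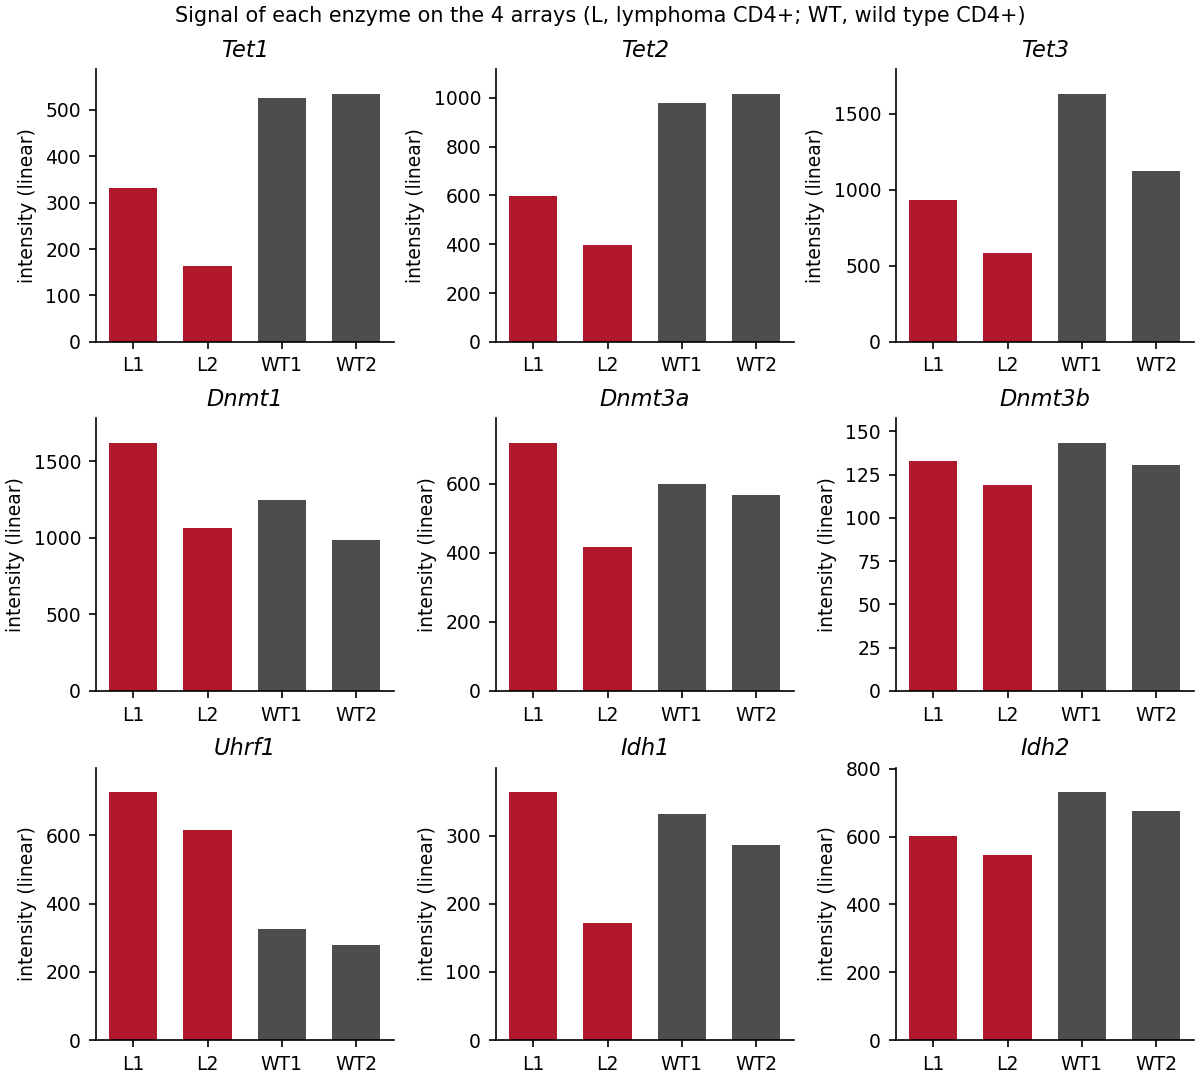
Intensity (linear scale, each panel from 0) of the 9 measured enzymes, 1 bar an array, with lymphoma CD4+ cells in red and wild type CD4+ cells in grey. Tet1, Tet2, Tet3 and Idh2 have both lymphoma bars below both wild type bars, and Uhrf1 has both above.

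Tet2, the trapped gene, had an intensity of 596 on lymphoma array 1 and 399 on lymphoma array 2, against 980 and 1016 in wild type. Signal from the locus was thus 2.05-fold lower in lymphoma (log2 difference -1.03, SE 0.24, 95% interval -1.61 to -0.46), and the adjusted p of 0.077 in limma did not pass. The groups did not overlap. The lymphoma values differed from each other by 0.58 on the log2 scale, and the wild type values by 0.05. A trapped transcript can still be detected by probes on the side of the cassette that is transcribed, and where this probe set lies relative to the trap is not known here, so the value checks the genotype label only loosely. Relative to the Cd3 genes the difference was -1.51 (adjusted p = 0.0013 in limma), on a scale where 13% of all genes were called lower. Leaving out lymphoma array 1 gave -1.32, and leaving out lymphoma array 2 gave -0.74. Each of these fits leaves 1 lymphoma array, so the spread rests on the wild type pair and only the size is given for Tet2. Over all genes, 4.23% were called lower without lymphoma array 1. With all arrays kept, the adjusted p of Tet2 in limma lay between 0.0013 (relative to the Cd3 genes) and 0.15 (all probe sets tested).

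Tet1, a paralog whose protein carries its own CXXC domain for binding CpG sites, also read lower on both lymphoma arrays. It had 332 and 163 in lymphoma, against 527 and 534 in wild type. The groups did not overlap, and the wild type values were nearly equal while lymphoma array 2 lay 1.03 below array 1 on the log2 scale. The log2 difference was -1.19 (SE 0.34, 95% interval -2.01 to -0.37, 2.28-fold lower, adjusted p = 0.14 in limma), which did not pass. Its 2 dimmer probe sets gave -1.04 and -1.19, again with both lymphoma values below both wild type values on each. The difference became -0.68 on dropping lymphoma array 2 and -1.70 on dropping array 1. Each of these fits leaves 1 lymphoma array, so the spread rests on the wild type pair and only the size is given. With all arrays kept, the adjusted p of Tet1 in limma lay between 0.0029 (relative to the Cd3 genes) and 0.24 (all probe sets tested).

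Tet3, the remaining paralog, had 935 and 587 in lymphoma, against 1630 and 1120 in wild type. The groups did not overlap, but here the wild type arrays also differed, by 0.54 on the log2 scale. Its log2 difference was -0.87 (SE 0.30, 95% interval -1.58 to -0.15, 1.82-fold lower, adjusted p = 0.22 in limma). A dimmer probe set of Tet3 had 831 and 546 in lymphoma and 1116 and 913 in wild type, a difference of -0.58, also without overlap. The difference of the main probe set was -0.53 without lymphoma array 2 and -1.20 without array 1. Only the size is given, since each of these fits leaves 1 lymphoma array. Over the alternatives that kept all arrays its adjusted p in limma lay between 0.0047 (relative to the Cd3 genes) and 0.33 (all probe sets tested).

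**Figure D2:**
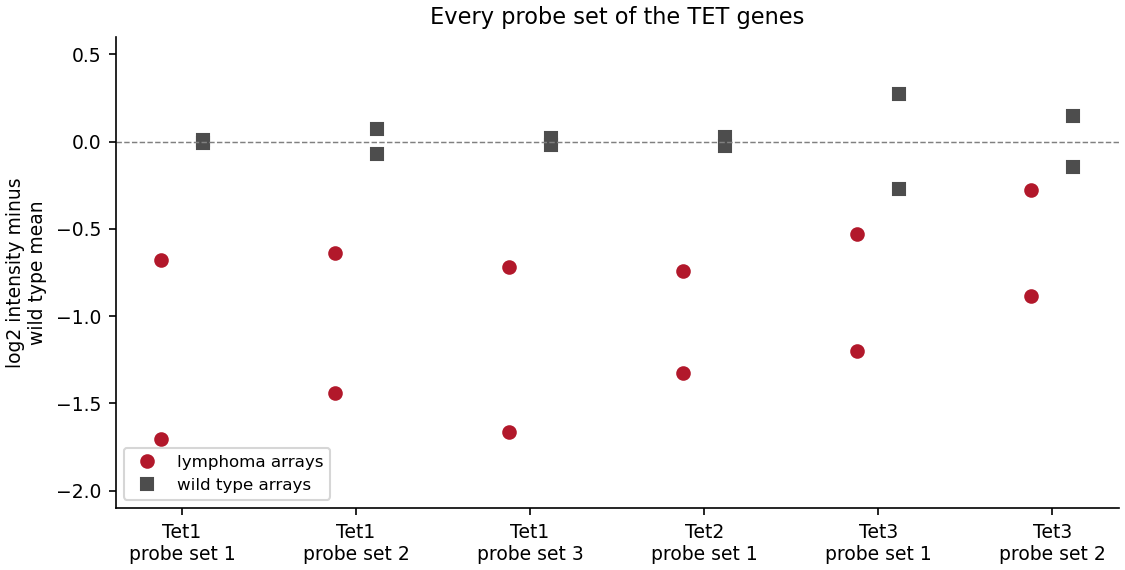
Each probe set of Tet1, Tet2 and Tet3, numbered from brightest to dimmest within a gene, as log2 intensity minus the mean of the wild type arrays. Red circles are the 2 lymphoma arrays and grey squares the 2 wild type arrays. On all 6 probe sets both lymphoma points lie below both wild type points, and the mean differences run from -1.19 to -0.58.

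The change of each paralog was set against that of Tet2 by subtracting the Tet2 log2 value within each array. For Tet1 the subtracted values were -0.84 and -1.29 in lymphoma and -0.90 and -0.93 in wild type, and for Tet3 they were 0.65 and 0.56 in lymphoma and 0.73 and 0.14 in wild type. For each paralog the subtracted values of the groups overlapped. The Tet1 change differed from the Tet2 change by -0.16 (SE 0.41, 95% interval -0.95 to 0.64, adjusted p = 0.71 in limma) and the Tet3 change by 0.17 (SE 0.40, 95% interval -0.63 to 0.96, adjusted p = 0.69). These intervals include differences of close to 1 log2 unit, so like changes are not shown. The exact two-sided permutation p over the 4 arrays was 1 for each, and the smallest this design allows is 0.33. In that fit every gene was set against Tet2 and shared its error, and 74.4% of all genes were called, so calls made there carry no weight for other members.

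With the differences to Tet2 added as single rows to the table of all genes (797 of 19946 rows called, 4%), a fit chosen after seeing the data, the intervals were -0.67 to 0.36 for Tet1 and -0.42 to 0.75 for Tet3. In the same fit the Uhrf1 change exceeded that of Tet2 by 2.18 (SE 0.21, adjusted p = 0.0070 in limma) and the Dnmt1 change by 1.27 (SE 0.20, adjusted p = 0.027). The Dnmt3a change exceeded it by 0.94 (SE 0.18, adjusted p = 0.0498), close to the threshold. Dnmt3b (0.91, adjusted p = 0.087), Idh2 (0.74, adjusted p = 0.15) and Idh1 (0.74, adjusted p = 0.19) did not pass. All of these differences were taken from the same 4 Tet2 values, in a fit without a variance trend. The calls for Uhrf1, Dnmt1 and Dnmt3a are therefore not independent of each other or of the Tet2 change. The exact permutation p of each was 0.33, the smallest possible here, so the calls rest on the moderated variances. Those were moderated towards the variances of single genes, though each added row is a difference of 2 genes. The SEs and intervals of this fit may therefore be too small and its calls too many. In the fit of every gene against Tet2 the SEs were 0.41 for Uhrf1, 0.40 for Dnmt1 and 0.41 for Dnmt3a. Both paralog intervals ran from negative to positive values.

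Dnmt3a, a methyltransferase that sets new methylation, was on neither side of wild type. It had 717 and 416 in lymphoma, against 599 and 567 in wild type, so that lymphoma array 1 lay above both wild type arrays and lymphoma array 2 below both. The log2 difference of -0.09 (SE 0.28, 95% interval -0.78 to 0.59, adjusted p = 0.94 in limma) averages these opposite deviations. It was 0.30 when lymphoma array 2 was left out and -0.49 when array 1 was left out.

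Dnmt3b, the second enzyme of this kind, was dim, with close values on all arrays. It had 133 and 119 in lymphoma, against 143 and 131 in wild type, with overlapping ranges and a log2 difference of -0.12 (SE 0.17, 95% interval -0.54 to 0.30, adjusted p = 0.86 in limma). No detection calls were available, so whether this signal lies above background is not known, and a change in a probe set this dim can be understated.

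**Figure D3:**
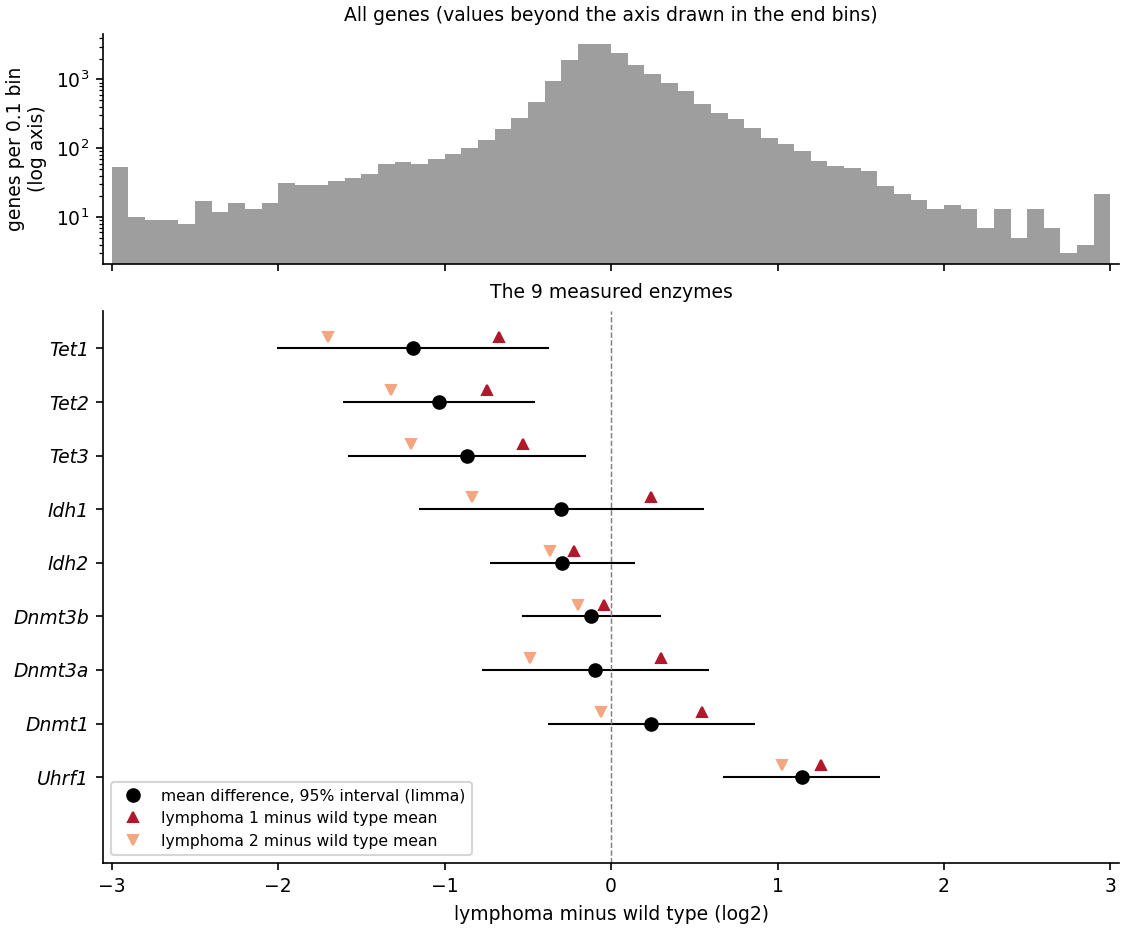
Top, the number of genes (log axis) by log2 difference, lymphoma minus wild type, in bins of 0.1. Bottom, the 9 measured enzymes on the same axis, with the mean and 95% interval (limma) in black and each lymphoma array minus the wild type mean as triangles. The TET genes lie lowest at -1.19, -1.03 and -0.87, Uhrf1 lies highest at 1.15, and the triangle of lymphoma array 2 lies left of that of array 1 for all 9. Dnmt1, at 0.24 here, turns to -0.24 relative to the Cd3 genes.

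Uhrf1, whose protein brings DNMT1 to newly replicated DNA, rose. It had 726 and 617 in lymphoma, against 327 and 280 in wild type. The groups did not overlap, and the replicates differed by 0.24 on the log2 scale in lymphoma and by 0.22 in wild type. The log2 difference was 1.15 (SE 0.20, 95% interval 0.67 to 1.62, 2.21-fold, adjusted p = 0.030 in limma), at or above that of 97.7% of genes. The call did not hold relative to the Cd3 genes (0.67, adjusted p = 0.066), with all probe sets tested (adjusted p = 0.077), or without wild type array 1 (1.26, adjusted p = 0.19) or array 2 (1.03, adjusted p = 0.24), where no gene on the array was called. Over the alternatives that kept all arrays its adjusted p lay between 0.019 (robust variance trend) and 0.29 (relative to the S phase genes) in limma.

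Dnmt1, the maintenance methyltransferase that works with UHRF1, did not pass. It had 1616 and 1062 in lymphoma, against 1248 and 986 in wild type, so lymphoma array 1 was highest of all 4 and lymphoma array 2 lay between the wild type arrays. The log2 difference was 0.24 (SE 0.26, 95% interval -0.38 to 0.86, adjusted p = 0.79 in limma), and its sign turned relative to the Cd3 genes (-0.24) and without lymphoma array 1 (-0.06).

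Cells that divide make DNA replication and maintenance methylation genes together in S phase, and Uhrf1 was read beside such genes. Of 16 S phase genes, 6 rose, beside 1.82% of all genes, and none fell. For all 16 each lymphoma value exceeded each wild type value, a pattern seen in 20.6% of all genes. Of the 16, 15 were higher at an unadjusted p under 0.05, beside 8.73% of all genes, and 0 were lower. Tyms, the thymidylate synthase, had 659 and 631 in lymphoma and 249 and 230 in wild type (log2 difference 1.43, adjusted p = 0.011 in limma). Lig1, which seals Okazaki fragments, rose by 1.20, Rrm2, a subunit of ribonucleotide reductase, by 1.18 and Pole, the catalytic subunit of a leading strand polymerase, by 1.18. The median of the list was 0.93, and its mean stood 1.06 above the wild type mean on lymphoma array 1 and 0.80 above it on array 2.

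Uhrf1 stood 1.26 and 1.03 above its own wild type mean on the same arrays, and Dnmt1 stood at 0.54 and -0.06. Relative to the mean of the 16 genes on each array, an alternative added after seeing the data, the Uhrf1 difference was 0.21 (SE 0.18, adjusted p = 0.29 in limma) and that of Dnmt1 was -0.69 (SE 0.20, adjusted p = 0.017). On that scale 81.8% of all genes were called lower and the median gene stood at -0.97, so the Dnmt1 value there is no sign of a change of its own. The gene whose 4 values were most like those of Uhrf1, by root mean square distance of centred log2 values over the 4 arrays, was Mki67, a marker of dividing cells and itself on the S phase list (distance 0.024). It had 2790 and 2356 in lymphoma, against 1300 and 1071 in wild type. Next came Zik1, a zinc finger gene (0.030), and Mif, a cytokine (0.031). Over 4 arrays such likeness is a description only.

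Of 13 partners and regulators of DNMT and TET proteins 2 rose, beside 1.82% of all genes, and none fell. In this list 8 had negative differences, and the median was -0.08. Hells, a remodelling ATPase needed for normal DNA methylation, had 486 and 332 in lymphoma, against 167 and 137 in wild type, and rose by 1.41 (SE 0.24, adjusted p = 0.032 in limma). Cdca7, which recruits HELLS to chromatin, had 840 and 696 in lymphoma, against 403 and 356 in wild type, and rose by 1.01 (SE 0.20, adjusted p = 0.045). The groups did not overlap for either gene. Relative to the Cd3 genes Hells passed (0.93, adjusted p = 0.034) and Cdca7 did not (0.53, adjusted p = 0.10). Pcna, the sliding clamp that holds enzymes to replicating DNA, differed by 0.31 (adjusted p = 0.44) and Usp7, a deubiquitinase, by -0.08 (adjusted p = 0.93).

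The promoters of the maintenance genes and these partners were searched for letters that E2F factors, regulators of S phase genes, are known to bind. The letters were TTTGGCGC, TTTCGCGC, TTTCCCGC and TTTGCCGC on either strand. Sites of the first 2 on opposite strands can overlap in their shared GCGC. In the 250 bases before each RefSeq start (GRCm38.p6), 1.86% of 32851 windows, or those of 2.16% of 27025 genes, held any of them. Among the 10 enzymes all had a window, and Uhrf1 (1 of its 2 starts) and Dnmt1 (1 of its 3) held a match. Hells and Cdca7, the only partners searched and the ones called, also held one, as did 4 of 14 S phase genes with a window (Mcm5, Mcm6, Mcm7 and Pola1). All 4 strings hold CG, and the matching windows held 30 CG in Uhrf1, 26 in Dnmt1, 28 in Hells and 21 in Cdca7. The median over all windows was 6, so the share over all windows is no matched baseline for them. The Tet2 window held 51 CG and no match. The stretches around the matches in the maintenance genes and their partners are shown 5′ to 3′ on the gene's strand, with the match in capitals.
Uhrf1, chr17:56304088-56304175, plus strand, 185 bases before the start: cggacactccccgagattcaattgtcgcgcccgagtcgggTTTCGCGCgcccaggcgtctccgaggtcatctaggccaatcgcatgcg
Dnmt1, chr9:20952795-20952873, minus strand, 219 bases before the start: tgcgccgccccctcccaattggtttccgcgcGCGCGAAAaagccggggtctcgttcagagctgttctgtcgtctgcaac
Hells, chr19:38930888-38930975, plus strand, 62 bases before the start: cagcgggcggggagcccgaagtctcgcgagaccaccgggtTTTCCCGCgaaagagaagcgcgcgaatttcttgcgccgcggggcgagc
Cdca7, chr2:72476108-72476195, plus strand, 71 bases before the start: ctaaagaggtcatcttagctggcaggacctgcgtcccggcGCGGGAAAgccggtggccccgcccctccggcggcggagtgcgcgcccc
In Dnmt1 and Cdca7 the match is on the opposite strand and reads in reverse complement. A match is a description of the letters and not evidence of binding.

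**Figure D4:**
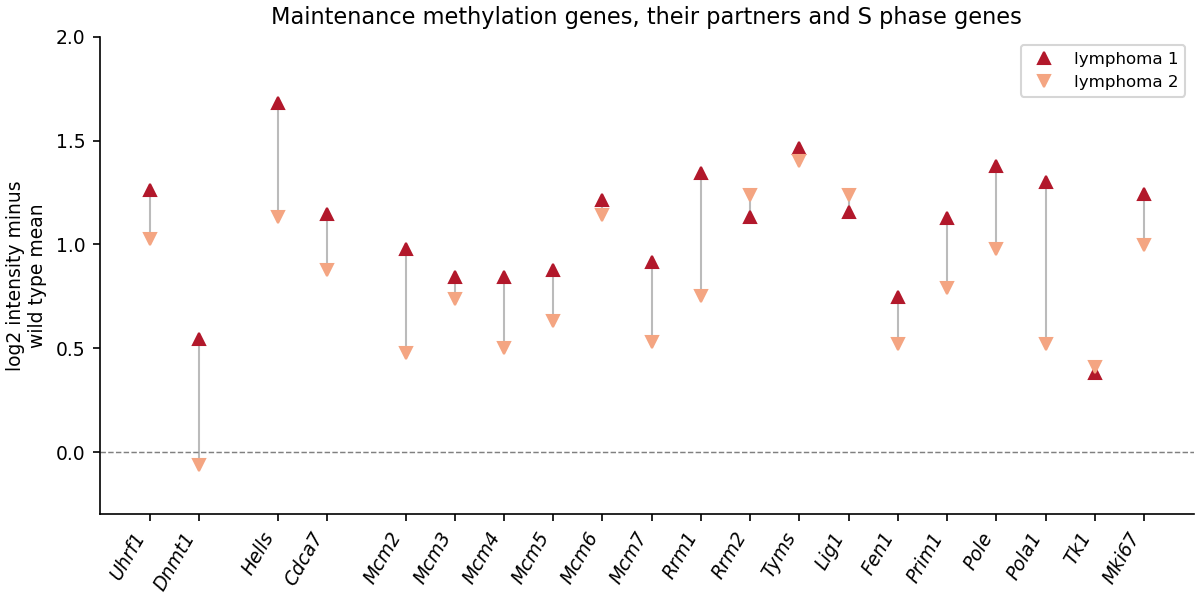
Log2 intensity minus the wild type mean for Uhrf1 and Dnmt1, for the partners Hells and Cdca7, and for 16 S phase genes, with lymphoma array 1 as upward and array 2 as downward triangles. Uhrf1 lies at 1.26 and 1.03, among the S phase genes, and Dnmt1 lies lower at 0.54 and -0.06.

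Idh1, a cytosolic source of 2-oxoglutarate, differed more between the lymphoma arrays than between the groups. It had 363 and 172 in lymphoma, against 331 and 286 in wild type, so that lymphoma array 1 was highest and lymphoma array 2 lowest. The log2 difference was -0.30 (SE 0.35, 95% interval -1.16 to 0.56, adjusted p = 0.82 in limma), and it was 0.24 when lymphoma array 2 was left out and -0.84 when array 1 was left out.

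Idh2, the mitochondrial enzyme, had 603 and 546 in lymphoma, against 731 and 675 in wild type. The groups did not overlap and the replicates lay close, but the difference was small at -0.29 (SE 0.18, 95% interval -0.73 to 0.14, adjusted p = 0.56 in limma). Relative to the Cd3 genes it was -0.77 (adjusted p = 0.036), on a scale where the median gene stood at -0.52. On that scale Tet1 (-1.67, adjusted p = 0.0029) and Tet3 (-1.35, adjusted p = 0.0047) were also called beside Tet2, as were 14.4% of all genes. These calls share the error of the same Cd3 mean.

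Replicate arrays differed from each other in a common direction. All 9 measured enzymes were lower on lymphoma array 2 than on array 1, as were 56.4% of all genes. Between the wild type arrays 7 of the 9 were lower on array 2, as were 54.6% of all genes. The gap was 1.08 on the log2 scale for Idh1, 1.03 for Tet1 and 0.79 for Dnmt3a, beside a median gap of 0.21 over all genes, and gaps at least as large were found in 3.34%, 3.71% and 6.51% of genes. It was smallest for Idh2 (0.14) and Dnmt3b (0.15). Between the wild type arrays the gap reached 0.54 for Tet3 and 0.34 for Dnmt1 and was at most 0.23 for the other 7. The lower level on lymphoma array 2 touched genes with very different group differences, from Tet1 to Uhrf1. The S phase list was also lower on that array. The B cell sum was lower there and the macrophage sum higher, but both sums lean on single genes. Cd22 (652 on array 1 and 1590 on array 2) and Blk (189 and 208) were higher on array 2. The other B cell markers were lower there, such as Ms4a1 (385 and 120), Cd79a (519 and 168) and Cd79b (660 and 258). Of the macrophage markers Lyz2 gained most (415 and 1436), and only Mpeg1 was lower (363 and 269). What these have to do with the gap was not tested.

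Genes with a pattern most like that of Tet2 over the 4 arrays were Ubash3a, a regulator of T cell receptor signalling, Erp27, a protein of the endoplasmic reticulum, and Carns1, which makes carnosine, with distances of 0.052, 0.059 and 0.059. Ubash3a had 733 and 459 in lymphoma, against 1242 and 1211 in wild type. Its log2 difference of -1.08 had an adjusted p of 0.084 in limma, and like Tet2 it did not pass.

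In the wider pathway the calls were among replication genes and partners of the enzymes. Of 81 measured genes in 7 related lists, 8 rose and none fell in limma. Before adjustment (p under 0.05) 27 were higher, beside 8.73% of all genes, and 0 were lower. Of the 27, 15 belonged to the S phase list, so the pooled count mostly describes replication genes. The 8 that rose were the 6 S phase genes with Hells and Cdca7. Relative to the Cd3 genes 5 were called higher (Hells, Lig1, Mcm6, Rrm2 and Tyms) and 3 lower (Cxxc5, Mbd4 and Zbtb38), beside 1.38% and 13% of all genes, and 10 were higher and 17 lower before adjustment. The shares of related genes with positive differences were 74.1% as deposited and 35.8% relative to the Cd3 genes, and those of all genes were 43.8% and 10.5%. Cxxc5, which binds TET2, differed by -0.36, and Ogt, which attaches a sugar to proteins and binds TET enzymes, by -0.14, neither passing on the deposited scale.

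None of 8 readers of methylated DNA passed in limma, either adjusted or at an unadjusted p under 0.05, and their median difference was -0.0028. The largest values were -0.38 for Mbd4, a reader that is also a glycosylase, and -0.34 for Zbtb38, the 2 readers called lower relative to the Cd3 genes. Uhrf2, the paralog of Uhrf1, had 843 and 759 in lymphoma, against 586 and 691 in wild type, and its difference of 0.33 did not pass (adjusted p = 0.52).

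Of 10 base excision repair genes none passed in limma, and the median was 0.08. Before adjustment (p under 0.05) 2 were higher, beside 8.73% of all genes, and 0 were lower. Neil3, a glycosylase made mainly in dividing cells, had 416 and 247 in lymphoma, against 155 and 137 in wild type (1.14, adjusted p = 0.088). Apex1, the nuclease that acts after the glycosylases, differed by 0.55 (adjusted p = 0.31).

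Of 14 genes of 2-oxoglutarate metabolism none passed in limma, and the median was 0.10. Before adjustment (p under 0.05) 2 were higher, beside 8.73% of all genes, and 0 were lower. Idh3a, a subunit of the mitochondrial enzyme that uses NAD, had 898 and 787 in lymphoma, against 512 and 503 in wild type (0.73, adjusted p = 0.093). Got2, a mitochondrial transaminase, differed by 0.49 (adjusted p = 0.14). For both genes the lymphoma values lay above the wild type values.

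Of 7 genes of methyl donor metabolism none passed in limma, and the median was 0.41. Before adjustment (p under 0.05) 2 were higher, beside 8.73% of all genes, and 0 were lower. Mthfd1, a folate enzyme, differed by 0.78 (adjusted p = 0.099) and Shmt1, a serine hydroxymethyltransferase, by 0.66 (adjusted p = 0.25). Of 13 other dioxygenases that use 2-oxoglutarate none passed, and the median was 0.27. Before adjustment (p under 0.05) 2 were higher, beside 8.73% of all genes, and 0 were lower. Egln3, an oxygen sensor of the hypoxia pathway, had 2263 and 593 in lymphoma, against 560 and 416 in wild type (1.26, adjusted p = 0.39), and the 2 lymphoma arrays differed widely. Egln1 differed by 0.75 (adjusted p = 0.13). Of the 13, 11 had positive differences as deposited and 4 relative to the Cd3 genes.

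**Figure D5:**
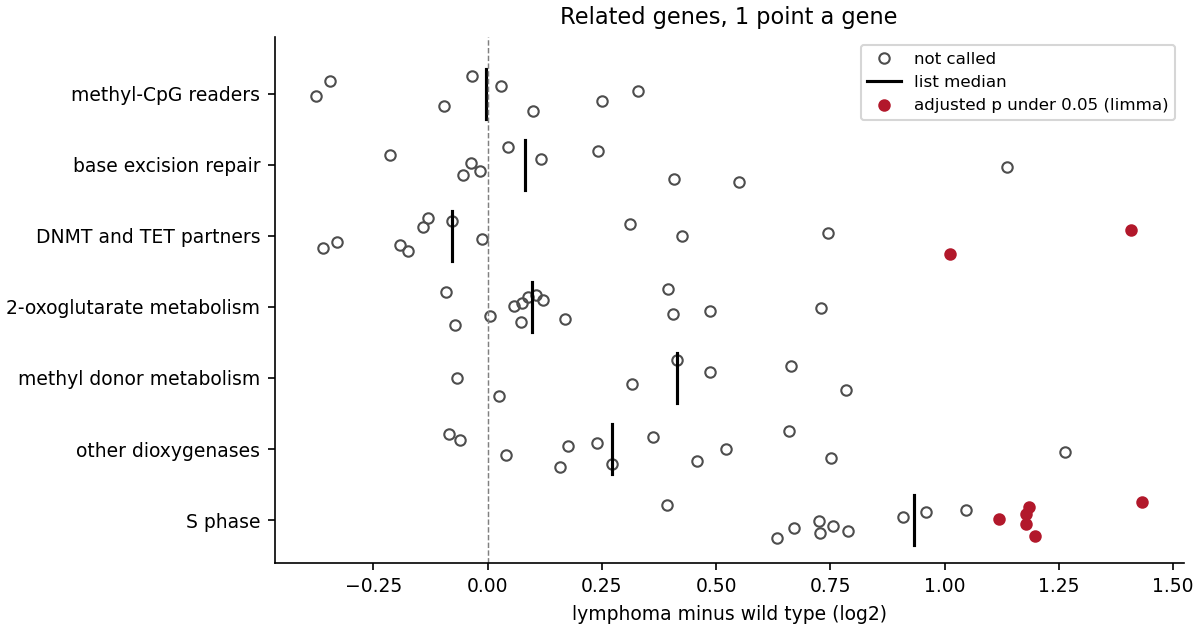
Log2 difference, lymphoma minus wild type, for 81 related genes in 7 lists, 1 point a gene, with called genes filled in red and the list median as a bar. The 8 called genes lie between 1.01 and 1.43, 6 in the S phase list (median 0.93) and 2 among the partners of DNMT and TET proteins.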

How the data were processed

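Total RNA of 4 samples was labelled with biotin and hybridised to 1 Affymetrix array each. The deposited values are intensity values on a linear scale, 1 per probe set and array, made by the authors with Affymetrix Expression Console per the submitters' processing notes. No label or header gives the summarisation, background correction or normalization. Log2 was taken with no pseudocount or filter. GEO's platform annotation gave 21789 probe sets 1 symbol, 1621 several and 12146 none. For genes with several probe sets (999), that with the highest mean was used, which left 19938 genes.

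Groups were compared in limma 3.58.1 (R 4.3.3) with a variance trend, two-sided, 2 residual and 4.24 prior degrees of freedom, and Benjamini-Hochberg adjustment over all genes, called at 0.05. The number of arrays limits the precision. Members and lists were chosen with earlier results of these data known. Named genes are all members, up to 4 called genes of each related list by size (or the 2 largest changes where none was called), other probe sets of members, and the 3 genes most like Tet2 and Uhrf1; Cxxc5, Ogt, Uhrf2, Pcna, Usp7 and the genes named for the Cd3 scaling were chosen after their values were seen. In simulated data on 19938 genes, 200 were changed, 100 at each of 2 sizes. Recovery for this comparison was 7% at a change of 1 log2 unit and 88% at a change of 2, with 5 unchanged genes called. Recovery after adjustment depends on the number of changed genes, and 852 were called in the data, so these shares are not those of the data. Promoters were from RefSeq (GRCm38.p6). Alternatives were other scalings, filters, variance models, probe set rules, a replicate block, array weights and leaving out each array. Figures were drawn with matplotlib 3.10.9.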

Additional observations from a re-analysis of the deposited data

How the results depend on the processing

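Over the whole array 852 genes were called (42.5% higher). The count was 2864 relative to the Cd3 genes (9.6% higher, with the median of all genes at -0.52), 439 with all probe sets tested, 1357 at an adjusted p under 0.10 and 0 to 1852 with 1 array left out. Among the 9 enzymes 1 was called, against 4 relative to the Cd3 genes (Tet1, Tet2, Tet3 and Idh2), 0 with all probe sets tested, 2 at an adjusted p under 0.10 (Uhrf1 and Tet2) and 0 to 4 with 1 array left out. Among the related genes 8 were called, all higher, against 5 higher and 3 lower relative to the Cd3 genes, 2 with all probe sets tested, 14 at an adjusted p under 0.10 and 0 to 20 with 1 array left out. The counts of 0 came without either wild type array, where the spread rests on the lymphoma pair (at an unadjusted p under 0.05 in limma, 1 enzyme was higher and 1 lower when wild type array 1 was left out, and 1 and 2 when array 2 was). Without a lymphoma array the remaining one is assumed to vary like the wild type pair.

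Tet2 ranged from -1.51 to -0.74 and, with all arrays kept, its adjusted p in limma from 0.0013 to 0.15. It passed relative to the Cd3 genes (-1.51) and at an adjusted p under 0.10 (-1.03). Over the fits with 1 array left out it lay between -1.32 and -0.74. Tet1, Tet3, Dnmt3b and Idh2 stayed negative and Uhrf1 positive under each alternative. The sign of Dnmt1 turned relative to the Cd3 genes (-0.24), relative to the S phase genes (-0.69) and without lymphoma array 1. With 1 array left out Dnmt1 lay between -0.063 and 0.54, Dnmt3a between -0.49 and 0.30 and Idh1 between -0.84 and 0.24, the last 2 turning positive without lymphoma array 2. The Tet1 minus Tet2 difference lay between -0.38 and 0.067 and the Tet3 minus Tet2 difference between -0.13 and 0.46 with 1 array left out, the upper value of the first coming without lymphoma array 2 and the lower value of the second without wild type array 2. Quantile normalization, array medians, dropping the dimmest genes, the variance models, averaged probe sets and array weights moved no call on an enzyme. The replicate block also left 1 enzyme called (Uhrf1, adjusted p = 0.030) and called 984 genes; deviations of same-numbered arrays correlated at r = 0.228 across genes, and nothing in the labels says that the numbers mark pairs.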
